A study of Mus musculus with 2 samples.

Results

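The ligands and receptors through which testicular cells exchange fibroblast growth factor (FGF), CXCL12 and CSF1 signals were examined in 2 single-cell RNA sequencing (scRNA-seq) libraries of mouse testes at postnatal day 7 (PD7). The 10 genes were chosen by symbol from the 32285 genes in the count tables. The 6 ligand genes were *Fgf2*, *Fgf5*, *Fgf8*, *Fgf9*, *Cxcl12* and *Csf1*, and the 4 receptor genes were *Fgfr1*, *Fgfr2*, *Fgfr3* and *Cxcr4*. All 10 had at least 1 UMI (a unique molecular identifier, the tag that marks one captured transcript) in both libraries. One library came from the testes of a control mouse, whose alleles the labels do not give, and the other from a *Brca1* vKO mouse of the same age (*Brca1* f/- *Vasa-Cre*). *Vasa-Cre* is active in germ cells from the gonocyte stage, so the somatic cells of this mouse carried 1 deleted *Brca1* allele and the germ cells were the target of the second deletion. With 1 mouse per genotype there was no test between genotypes. The intervals below are 95% intervals that cover counting error only.

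FGFs are secreted factors that bind receptor tyrosine kinases with heparan sulphate as a cofactor and activate the ERK kinases. FGF2 and GDNF are used to maintain spermatogonial stem cells in culture. FGF9 acts in the fetal gonad, where it is needed for Sertoli cell fate, and FGF8 is best known from the embryo. CXCL12 is a chemokine bound by CXCR4, a receptor of migrating germ cells, endothelium and leukocytes. CSF1 binds CSF1R and sustains macrophages.

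The tables held 120568700 UMIs in 5812 barcodes of the control library and 165062097 UMIs in 9456 barcodes of the *Brca1* vKO library. After filtering, 5077 and 8712 cells remained, of which 3.17% and 2.86% were marked as likely doublets, and 16 barcode sequences occurred among the kept cells of both libraries. Cells were named from marker genes, with the 10 genes themselves left out of the clustering. Germ cells that resembled GFRA1-positive undifferentiated spermatogonia (GFRA1-type) numbered 409 (control) and 184 (*Brca1* vKO). Germ cells that resembled KIT-positive differentiating spermatogonia (KIT-type) numbered 162 and 10. The somatic classes were Sertoli-like (2020 and 4160 cells), stromal-like (855 and 1984), peritubular myoid-like (556 and 1413), pericyte-like (47 and 69), Leydig-like (47 and 112), endothelial-like (27 and 36) and macrophage-like (25 and 68). A further 509 and 81 germ cells had low UMI counts or somatic genes among their leading genes and were left unnamed. Median UMIs per cell were 43695 and 35768 in GFRA1-type, 18695 and 15613.5 in Sertoli and 16203 and 12146 in stromal cells. The 10 *Brca1* vKO cells of KIT-type carried *Gfra1* at 208 CPM, against 5.87 CPM in the control ones, so no direction between genotypes is drawn from them. *Brca1* itself was at 70.5 CPM (UMIs per 1000000 UMIs of the class) in the control GFRA1-type cells and at 43.0 CPM in the *Brca1* vKO ones (ratio 0.610, 0.536 to 0.692). The counts did not separate transcripts of the deleted allele.

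The results below turn mostly on *Fgf9* in GFRA1-type cells, *Cxcl12* in stromal cells and *Cxcr4* in macrophages and germ cells, and their upstream sequences are shown for that reason. Each is the 250 bases before a transcript start in RefSeq (GRCm38.p6), printed 5′ to 3′ on the strand of the gene. The windows are chr14:58072436-58072685 on the plus strand for *Fgf9*, chr6:117168285-117168534 on the plus strand for *Cxcl12* and chr1:128592300-128592549 on the minus strand for *Cxcr4*. The *Fgf9* window lies inside the annotated span of the gene, and the other 2 lie just outside. Capitals mark the GC box GGGCGG on either strand, overlapping matches included.
Fgf9: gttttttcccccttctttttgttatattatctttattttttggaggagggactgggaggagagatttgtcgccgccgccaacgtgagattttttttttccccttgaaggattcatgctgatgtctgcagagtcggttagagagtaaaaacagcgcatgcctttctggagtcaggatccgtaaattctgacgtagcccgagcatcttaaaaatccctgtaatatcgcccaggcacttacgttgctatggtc
Cxcl12: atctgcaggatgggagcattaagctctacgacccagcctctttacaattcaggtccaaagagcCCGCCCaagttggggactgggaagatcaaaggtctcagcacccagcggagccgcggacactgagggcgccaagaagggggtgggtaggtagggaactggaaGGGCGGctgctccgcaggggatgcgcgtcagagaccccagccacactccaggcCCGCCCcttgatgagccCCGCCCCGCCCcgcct
Cxcr4: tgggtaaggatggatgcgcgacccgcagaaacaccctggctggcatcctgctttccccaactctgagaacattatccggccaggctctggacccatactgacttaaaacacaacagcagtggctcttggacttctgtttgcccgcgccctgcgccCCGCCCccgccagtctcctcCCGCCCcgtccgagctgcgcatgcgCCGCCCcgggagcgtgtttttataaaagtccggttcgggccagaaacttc
The *Cxcl12* window held 5 GC boxes and the *Cxcr4* window held 3, while the *Fgf9* window held none. Of the 8 genes with a window, 6 had a GC box (*Fgf2*, *Fgf5*, *Cxcl12*, *Csf1*, *Fgfr3* and *Cxcr4*). Counted by window, 7 of the 9 windows of these genes had one, against 32.7% of all 32851 windows. A match is a description of these letters and not a mapped binding site.

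The CXCL12 ligand gene was a gene of the stromal class. *Cxcl12* (chromosome 6, 117168535 to 117181367, GRCm38) was at 437 CPM in the control stromal cells (426 to 448, 6255 UMIs) and at 508 CPM in the *Brca1* vKO ones (499 to 516, 13008 UMIs). The stromal class held 77.0% of all *Cxcl12* UMIs in control and 76.3% in *Brca1* vKO, although it held 12.1% and 15.7% of all UMIs. A *Cxcl12* UMI was seen in 83.0% of control and 85.8% of *Brca1* vKO stromal cells after thinning to 10000 UMIs per cell (88.2% and 89.6% of all stromal cells, unthinned). Cells with fewer UMIs than the depth were left out of this and every other thinned share. In Sertoli cells the thinned shares were 1.52% and 3.41%. At 2000 UMIs, the depth planned at first, the shares were 51.3% and 55.6% in stromal and 0.45% and 0.890% in Sertoli cells. Most stromal cells thus carried the ligand transcript, against a low share of Sertoli cells.

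Below the stromal class, myoid cells were at 129 CPM in the control (121 to 138) and 149 CPM in *Brca1* vKO (142 to 155), and pericytes were at 132 and 148 CPM. In *Brca1* vKO the endothelial class, described below, stood between stromal and myoid cells. These levels of myoid cells and pericytes lay within each other's counting intervals. Leydig cells were lower, at 29.4 and 60.4 CPM, and GFRA1-type germ cells were at 4.72 and 3.04 CPM (ratio 0.644, 0.380 to 1.046, but 2.47, 0.993 to 6.94, among those with a UMI of the stem cell marker *Lhx1*). All 8 stromal markers were detected in the Leydig class, and their summed level there was 1254 CPM in the control and 2320 CPM in *Brca1* vKO, and their part in its *Cxcl12* values was not tested. Within the stromal class, the cluster led by cycling genes such as *Mki67* had less *Cxcl12* (349 CPM in the control, 357 in *Brca1* vKO) than the larger cluster (460 and 540 CPM). The ratio of *Brca1* vKO to control was 1.16 in stromal cells (1.13 to 1.197) and 1.15 in myoid cells (1.07 to 1.24).

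Endothelial cells had *Cxcl12* at 60.01 CPM in the control (53 UMIs) and at 303 CPM in *Brca1* vKO (380 UMIs), a ratio of 5.05 (3.78 to 6.86). One *Brca1* vKO cell gave 172 of the 380 UMIs. Without the richest cell of each library the levels were 45.6 and 173 CPM (ratio 3.79, 2.69 to 5.47), and as a mean of per-cell CPM the ratio was 1.53. The summed level of the 6 myoid markers in the endothelial class was 225 CPM in the control and 745 CPM in *Brca1* vKO, and that of the 8 stromal markers was 104 and 388 CPM. Their part in the *Cxcl12* difference was not tested.

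**Figure D1:**
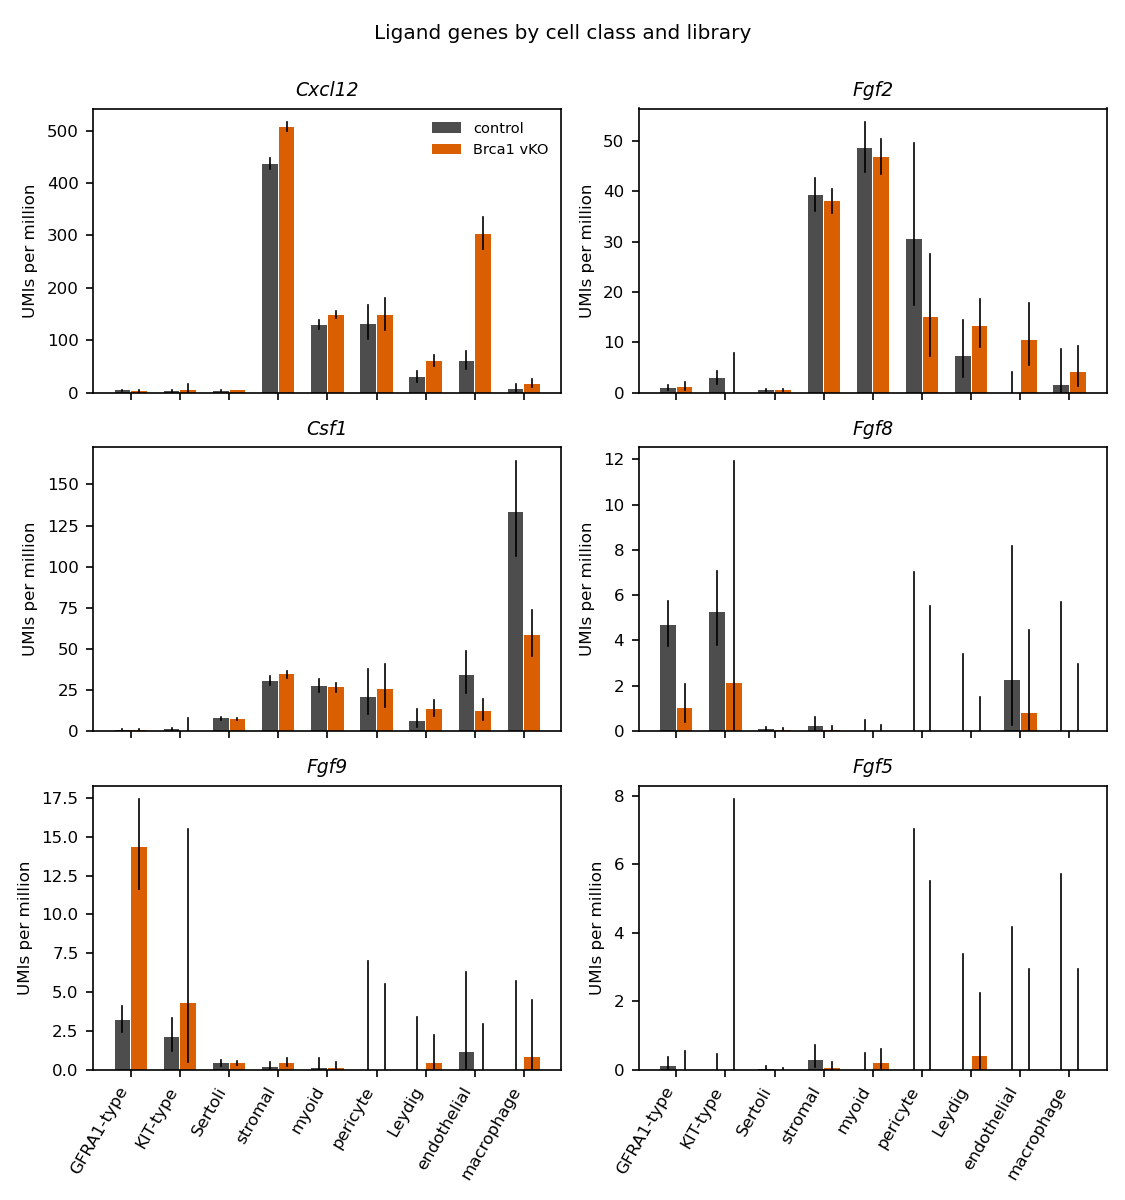
Level of the 6 ligand genes (UMIs per 1000000 UMIs of the class) in 9 cell classes of the control library (grey) and the Brca1 vKO library (orange), with exact Poisson 95% intervals as lines and 1 library per genotype. Cxcl12 stood highest in stromal cells, Fgf2 in myoid and stromal cells, and Fgf9 in GFRA1-type germ cells, where it was at 3.18 and 14.3 CPM.

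The receptor *Cxcr4* (chromosome 1, 128588199 to 128592293) was highest in macrophages among the 9 named classes, at 51.1 CPM in the control (35.2 to 71.8, 33 UMIs) and 64.0 CPM in *Brca1* vKO (50.8 to 79.7, 80 UMIs). Endothelial cells followed with 22.6 CPM (20 UMIs) and 15.1 CPM (19 UMIs). *Cxcr4* was the only 1 of the 10 genes whose first class was at least 2-fold above the next in both libraries, and as a mean of per-cell CPM it no longer met that rule. Only 8 genes had the 50 UMIs in each library that this rule asked for, *Fgf5* and *Fgf8* falling short. Over all 16498 genes that had them, 12.7% met the rule, so 1 of 8 was near the share of all genes. Leukocytes outside the 9 classes had levels above those of macrophages, with 566 CPM (9 UMIs) and 78.6 CPM (25 UMIs) in neutrophil-like cells and 149 CPM (29 UMIs) and 64.4 CPM (14 UMIs) in an unnamed immune cluster led by lymphoid genes such as *Cd3g* and *Cd79a*. In *Brca1* vKO both lay close to the macrophage level, within its counting interval.

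Among germ cells, *Cxcr4* was a gene of the GFRA1-type. It was at 4.56 CPM in the control GFRA1-type cells (3.64 to 5.63, 86 UMIs) and at 0.611 CPM in the control KIT-type cells (0.198 to 1.43, 5 UMIs), and these intervals did not overlap. In the *Brca1* vKO GFRA1-type cells it was at 6.51 CPM (4.75 to 8.71, 45 UMIs). The ratio between libraries was 1.43 with an interval of 0.973 to 2.07, which includes 1. The share of GFRA1-type cells with a *Cxcr4* UMI at 10000 UMIs was 3.24% in the control and 3.37% in *Brca1* vKO, against 0.263% and 0.270% in stromal cells, which should lack it. At the planned depth of 2000 UMIs the GFRA1-type shares were 0.737% (0.152 to 2.14) and 0.552% (0.0140 to 3.04). The stromal ones were 0% (0 to 0.433) and 0.101% (0.0122 to 0.364), with overlapping intervals. Sertoli cells were at 1.25 and 1.44 CPM, with 1.36% and 1.19% of cells positive at 10000 UMIs. Because Sertoli cells were the most numerous class, this low level still made up 24.7% of the *Cxcr4* UMIs of the control library and 41.6% of those of the *Brca1* vKO library. *Ackr3*, which encodes the other CXCL12 receptor, was found in stromal cells (45.6 and 44.6 CPM) and endothelial cells (40.8 and 57.4 CPM), while GFRA1-type cells were at 0.530 and 0.579 CPM.

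**Figure D2:**
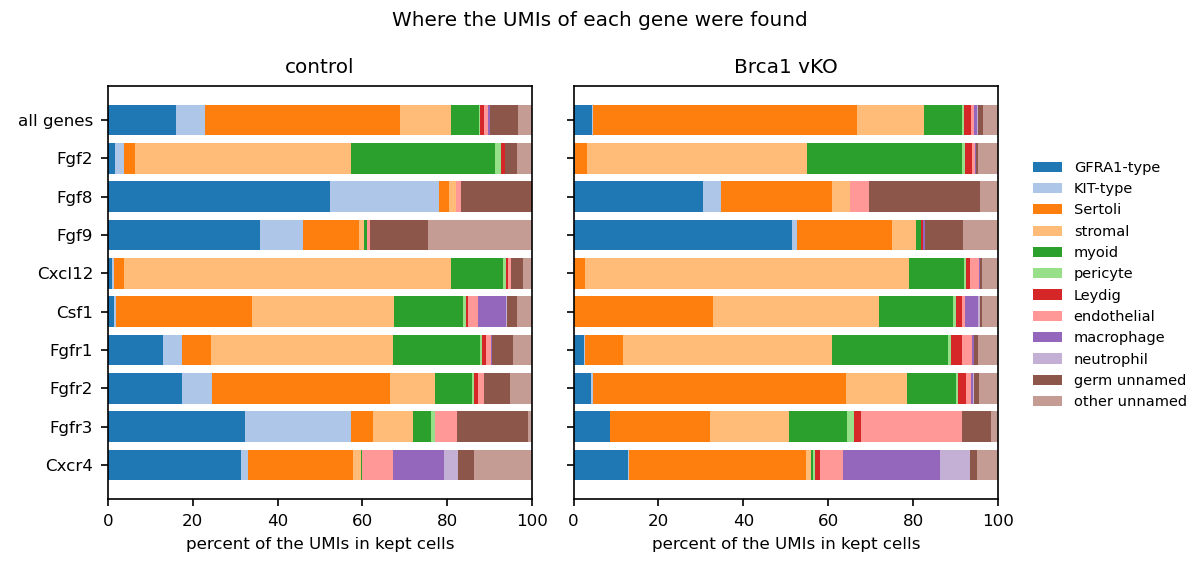
Percent of the UMIs of each gene, and of all genes, that fell in each cell class of the control library (left) and the Brca1 vKO library (right), with Fgf5 left out for its few UMIs. Stromal cells held 77.0% and 76.3% of the Cxcl12 UMIs, and GFRA1-type cells held 35.9% and 51.6% of the Fgf9 UMIs.

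*Fgf2* (chromosome 3, 37348346 to 37410108) was a gene of the peritubular and interstitial mesenchyme. It was at 48.6 CPM in the control myoid cells (43.8 to 53.7) and 46.8 CPM in the *Brca1* vKO ones (43.4 to 50.4). Stromal cells had 39.3 CPM (36.1 to 42.7) and 38.0 CPM (35.7 to 40.5), below the myoid cells in both libraries with intervals that did not overlap. Together these cells held most *Fgf2* UMIs, with 51.0% in stromal and 34.0% in myoid cells of the control, and 51.7% and 36.7% in *Brca1* vKO. Sertoli cells were at 0.535 and 0.531 CPM and GFRA1-type cells at 0.954 and 1.01 CPM. The ratio between libraries was 0.964 in myoid (0.849 to 1.10) and 0.968 in stromal cells (0.871 to 1.08). The cycling stromal cluster had 24.7 and 26.2 CPM, against 43.0 and 40.5 CPM in the larger stromal cluster. In the annotation *Fgf2* overlaps *Nudt6* and *Fgf2os* on the other strand. *Fgf5* was barely detected, with 7 UMIs in all kept cells of the control and 5 in those of the *Brca1* vKO library.

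*Csf1* (chromosome 3, 107741048 to 107760469) was spread over somatic cells. Stromal cells were at 30.7 CPM (27.9 to 33.7) and 34.4 CPM (32.2 to 36.8), and myoid cells at 27.5 and 26.6 CPM. Sertoli cells had a lower level of 7.73 and 7.29 CPM but held 32.0% and 32.8% of all *Csf1* UMIs, next to 33.5% and 39.0% in stromal cells. GFRA1-type cells were at 0.954 and 0.434 CPM. The summed level was highest in macrophages, at 133 CPM in the control and 58.4 CPM in *Brca1* vKO. In the control, however, 1 macrophage held 77 of the 86 UMIs. Without the richest cell of each library the macrophage levels were 15.1 and 43.9 CPM, so the direction between libraries turned (ratio 0.439 with all cells, 2.91 without). In the control endothelial cells 1 cell likewise held 21 of the 30 UMIs. No direction between genotypes is therefore drawn for *Csf1* in these small classes. The *Brca1* vKO macrophage class also carried neutrophil markers at 6880 CPM, against 6.20 CPM in the control. Without the 4 cells that had over 100 such UMIs, *Csf1* was at 63.9 CPM and *Cxcr4* at 69.2 CPM there. The receptor gene *Csf1r* was at 480 and 406 CPM in macrophages and at most 5.72 CPM in each of the other named classes. *Il34*, whose product is the other CSF1R ligand, was led by pericytes, at 47.7 and 50.8 CPM.

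The FGF receptor genes differed in their reach. *Fgfr1* (chromosome 8, 25513654 to 25575718) was at 114 CPM in the control stromal cells (109 to 120) and 111 CPM in the *Brca1* vKO ones (107 to 115). Myoid cells had 101 CPM (94.2 to 109) and 107 CPM (102 to 113), which overlapped the stromal intervals. Sertoli cells were the lowest class, at 4.65 CPM (4.09 to 5.26) and 5.09 CPM (4.66 to 5.55). GFRA1-type cells lay between, at 26.3 CPM (24.0 to 28.7) and 21.4 CPM (18.1 to 25.1), with a ratio between libraries of 0.815 (0.673 to 0.981) that turned to 1.054 under a mitochondrial limit of 5% (106 and 39 cells). Endothelial cells had 45.3 and 107 CPM (ratio 2.36, 1.65 to 3.45) and Leydig cells 34.9 and 59.2 CPM (ratio 1.70, 1.18 to 2.49). The marker sums of other cells in these classes are given above. The part of the stromal markers in the Leydig class was not tested here either. Nor was that of the myoid and stromal markers in the endothelial class. In both libraries *Fgfr1* was thus higher in the germ cells than in the Sertoli cells that enclose them.

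*Fgfr2* (chromosome 7, 130162451 to 133123350) was broad. In the control it ran from 85.0 CPM in stromal cells to 160 CPM in endothelial cells, with macrophages apart at 34.1 CPM. In the *Brca1* vKO library it ran from 84.1 CPM in stromal to 127 CPM in endothelial cells, with macrophages at 65.6 CPM. The macrophage class carried Sertoli markers at 167 CPM in the control and 1447 CPM in *Brca1* vKO. Leydig markers were at 4.65 and 657 CPM there, myoid markers at 38.7 and 429 CPM, and 0% and 8.82% of its cells were marked as doublets. Their part in the macrophage *Fgfr2* values was not tested. GFRA1-type cells were at 107 CPM (102 to 112) and 90.6 CPM (83.6 to 97.9), a ratio of 0.846 (0.772 to 0.926). Sertoli cells were at 89.8 CPM (87.3 to 92.3) and 87.3 CPM (85.5 to 89.1) (ratio 0.973). Myoid cells were above both, at 131 and 115 CPM (ratio 0.881, 0.814 to 0.953). The annotated span of *Fgfr2* in GENCODE M21 holds 48 other genes of the tables, and whether reads of overlapping exons entered its count was not tested. *Fgfr3* was rare, with 96 UMIs in all kept control cells and 59 in *Brca1* vKO cells. Its highest level was in endothelial cells, at 5.66 CPM (5 UMIs) and 11.2 CPM (14 UMIs). In the control, 31 of its UMIs lay in GFRA1-type and 24 in KIT-type cells. Of the partner genes, *Fgfr4* was led by pericytes (28.6 and 22.4 CPM), and *Fgfrl1*, a receptor without a kinase domain, was at 22.1 and 26.2 CPM in Leydig cells and between 1.55 and 17.2 CPM elsewhere.

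**Figure D3:**
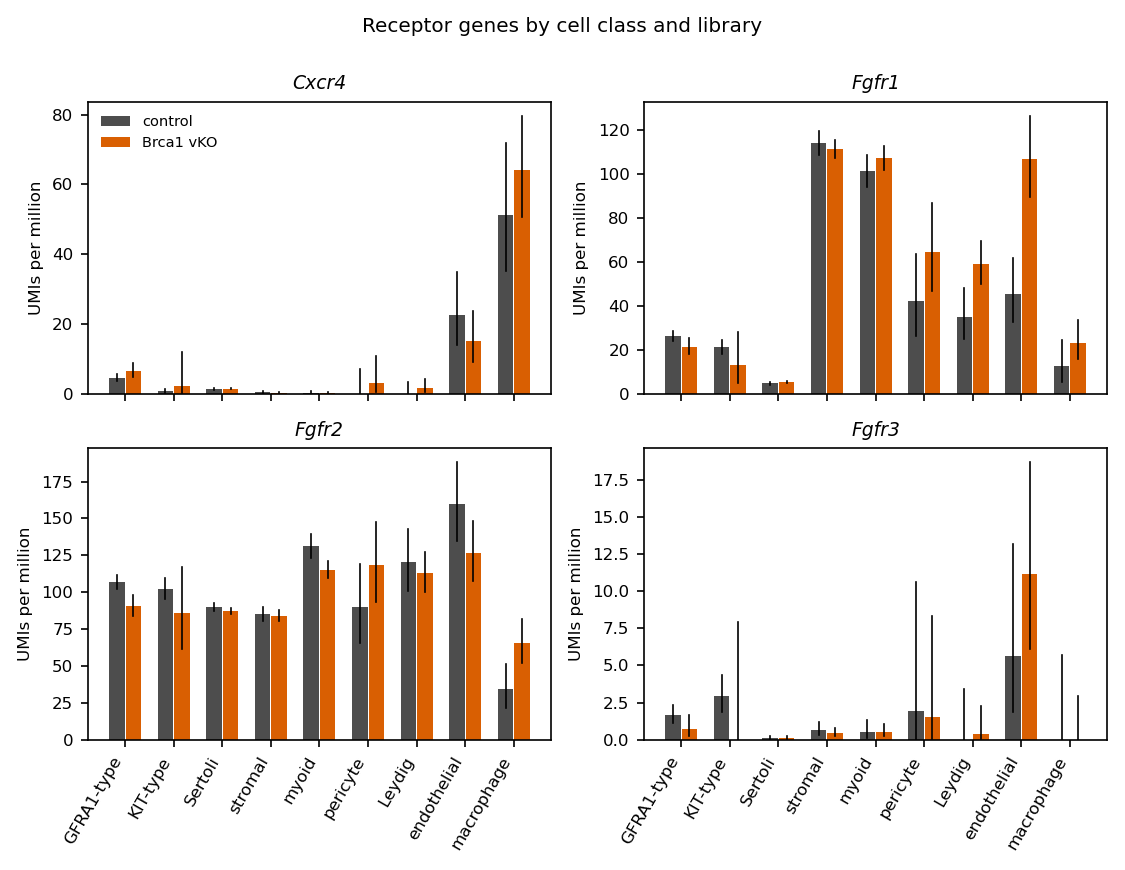
Level of the 4 receptor genes (UMIs per 1000000 UMIs of the class) in 9 cell classes of the control library (grey) and the Brca1 vKO library (orange), with exact Poisson 95% intervals as lines and 1 library per genotype. Cxcr4 stood highest in macrophages (51.1 and 64.0 CPM), Fgfr1 in stromal and myoid cells, and Fgfr2 was present across all classes.

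Among the FGF ligand members, only *Fgf9* and *Fgf8* had at least 50 UMIs in the GFRA1-type germ cells of both libraries together. In this class they differed between the libraries in opposite directions. Outside the members, the ligand genes *Fgf1*, *Fgf18* and *Fgf22* also reached this count. *Fgf9* (chromosome 14, 58070547 to 58112720) was at 3.18 CPM in the control GFRA1-type cells (2.43 to 4.09, 60 UMIs) and at 14.3 CPM in the *Brca1* vKO ones (11.6 to 17.4, 99 UMIs), a ratio of 4.51 (3.24 to 6.32). *Fgf8* (chromosome 19, 45736798 to 45742915) was at 4.66 CPM in the control (3.74 to 5.74, 88 UMIs) and at 1.01 CPM in *Brca1* vKO (0.407 to 2.09, 7 UMIs), a ratio of 0.217 (0.0848 to 0.467). The intervals of the libraries did not overlap for either gene. A *Fgf9* UMI was found in 44 of 409 control and 58 of 184 *Brca1* vKO cells, and a *Fgf8* UMI in 74 of 409 and 6 of 184. At 10000 UMIs per cell the shares were 1.995% and 12.9% for *Fgf9*, against 0.315% and 0.238% in Sertoli cells. For *Fgf8* they were 5.74% and 0.562%, against 0.105% and 0.0529% in Sertoli cells. At the planned depth of 2000 UMIs, the *Fgf9* shares were 1.47% (0.543 to 3.18) and 3.87% (1.57 to 7.81). Those of *Fgf8* were 0.983% (0.268 to 2.50) and 0.552% (0.0140 to 3.04). At that depth the intervals of the libraries overlapped for both genes. Without the richest cell of each library the *Fgf9* ratio was 4.39 (3.12 to 6.22).

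*Fgf9* was lower in the large somatic classes, where Sertoli cells were at 0.406 and 0.423 CPM, stromal cells at 0.140 and 0.429 CPM and myoid cells at 0.130 and 0.135 CPM. *Fgf8* was likewise at 0.210 CPM or lower in Sertoli, stromal and myoid cells. The control KIT-type cells had 2.08 CPM of *Fgf9* (1.21 to 3.33) and 5.26 CPM of *Fgf8* (3.803 to 7.08), so in the control neither gene separated the germ cell sub-types beyond counting error. The summed level of the 7 Sertoli markers in the GFRA1-type cells was 91.4 CPM in the control and 186 CPM in *Brca1* vKO. On the log2 scale with a pseudocount of 10 CPM, neither ligand gene passed 2-fold, because both lie near or below that pseudocount. With it, 0 of the 6 genes with at least 50 UMIs passed in GFRA1-type cells, where 0.967% of all 13347 genes were at least 2-fold higher and 0.674% at least 2-fold lower in *Brca1* vKO. The median log2 difference of these 6 was -0.19, against -0.02 over all genes.

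The GFRA1-type cells of the libraries were not alike in their other markers, and the ligand values are read beside these. *Gfra1* had a ratio of 1.49, *Id4* of 1.97, *Eomes* of 3.95 and *Lhx1* of 6, all markers of the most undifferentiated spermatogonia. *Stra8* had a ratio of 0.463, *Dmrtb1* of 0.448 and *Sohlh1* of 0.294, which are genes of progenitor and differentiating cells, while *Kit* had a ratio of 3.29. The full list of 6 GFRA1-type markers, with *Ret* and *Nanos2*, summed to 446 CPM in the control and 791 CPM in *Brca1* vKO. The full list of 5 KIT-type markers, with *Esx1*, summed to 264 and 125 CPM. An *Lhx1* UMI was found in 120 of the 409 control cells and 161 of the 184 *Brca1* vKO cells. Among these cells alone, *Fgf9* was at 6.35 CPM in the control and 14.9 CPM in *Brca1* vKO (ratio 2.35, 1.58 to 3.55). *Fgf8* was at 2.82 and 0.962 CPM (ratio 0.341, 0.109 to 0.917), and *Cxcr4* at 6.35 and 6.90 CPM (ratio 1.09, 0.681 to 1.74). The *Fgf9* ratio was thus nearer to 1 among cells that shared this marker, with an interval still above 1, and the interval of *Cxcr4* included 1. Among cells without a *Kit* or *Stra8* UMI (158 and 59 cells), the ratios were 3.62 for *Fgf9* (2.10 to 6.25) and 0.2997 for *Fgf8* (0.0590 to 0.951). How much of each difference came from the makeup of the class was not tested.

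Genes that ERK signalling is known to induce were higher in the *Brca1* vKO GFRA1-type cells as a group. Of a list of 20 FGF and ERK target genes, 16 had at least 50 UMIs in this class, and all 16 had a ratio above 1. Their median log2 difference was 0.73, against -0.02 over all genes. The list was chosen with earlier results of these data known, so these values are a description and not independent support. The share of all genes with a ratio above 1 was not computed. With the pseudocount, 3 of the 16 were at least 2-fold higher and none was 2-fold lower, against the 0.967% and 0.674% of all genes given above. They were *Spry1*, a feedback inhibitor of receptor tyrosine kinases (8.85 and 35.3 CPM, ratio 3.99, 3.26 to 4.89), *Bcl6b*, a transcription factor of stem cell maintenance (11.0 and 39.5 CPM, ratio 3.58, 2.98 to 4.31) and *Phlda1* (8.16 and 29.9 CPM, ratio 3.67, 2.96 to 4.55). Below the pseudocounted limit were the ERK phosphatase gene *Dusp6* (29.0 and 63.2 CPM, ratio 2.18), the ETS factor genes *Etv4* (24.2 and 57.4 CPM, ratio 2.37) and *Etv5* (61.5 and 85.3 CPM, ratio 1.39), and *Spry4* (7.89 and 23.7 CPM, ratio 3.01). *Etv5*, *Bcl6b* and *Lhx1* are also known GDNF targets. *Gdnf* itself was at 39.5 CPM in control and 51.3 CPM in *Brca1* vKO Sertoli cells, and its part in the target gene differences was not tested.

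Among cells with an *Lhx1* UMI, 12 of 14 tested target genes had a ratio above 1, with a median log2 difference of 0.48 and none past 2-fold. The same values over all genes were not computed for these cells, so this count and median have no background. The libraries were not matched for the level of *Lhx1* within this set. *Spry1* had a ratio of 2.40 there (1.87 to 3.12), *Dusp6* of 1.29 (1.11 to 1.51) and *Etv5* of 0.941 (0.834 to 1.06). In the control KIT-type cells *Dusp6* was at 3.30 CPM and *Etv5* at 6.60 CPM, below their levels in the control GFRA1-type cells.

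**Figure D4:**
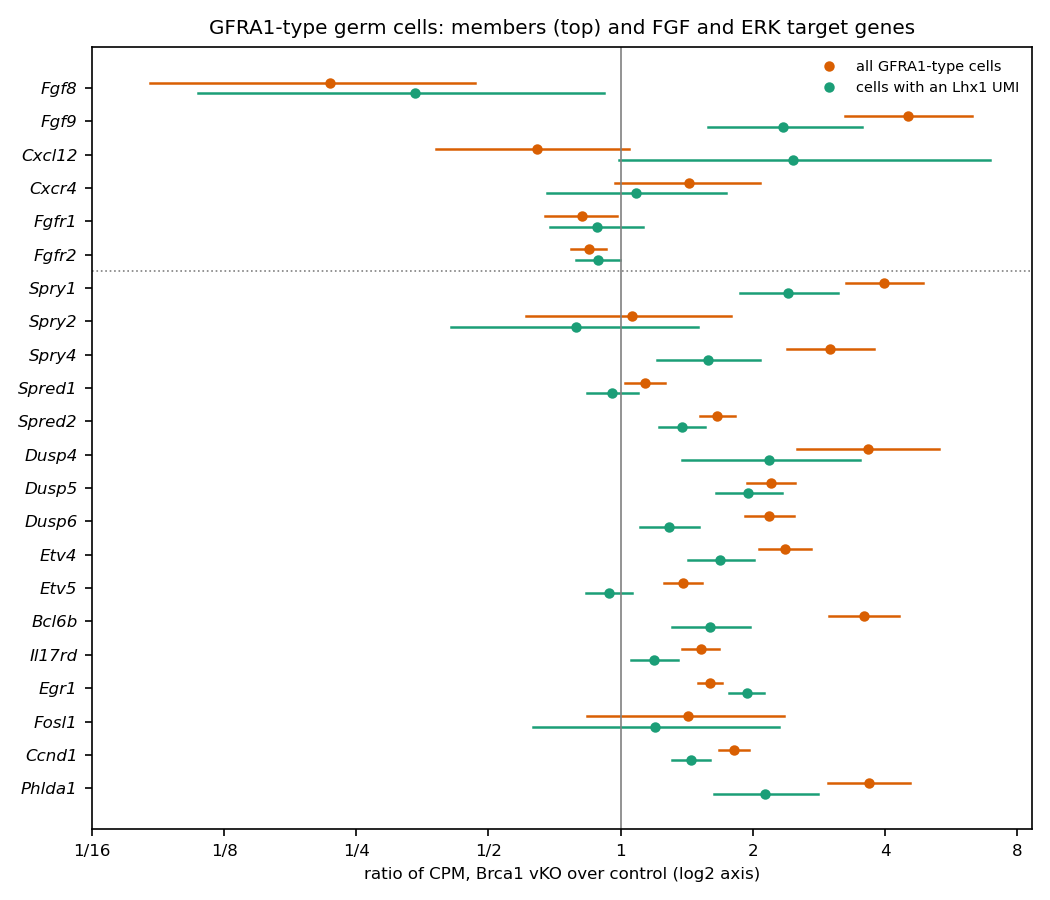
Ratio of CPM in the Brca1 vKO library to the control library (log2 axis) in GFRA1-type germ cells, for 6 ligand and receptor genes above the dotted line and 16 FGF and ERK target genes below it. Points are ratios and lines exact conditional 95% intervals, for all GFRA1-type cells (orange) and for those with an Lhx1 UMI (green), where Fgf9 moved from 4.51 to 2.35.

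The large somatic classes showed less of this by the 2-fold rule. In Sertoli cells 7 of the 10 genes had at least 50 UMIs and none passed 2-fold in either direction, where 0.0645% of all genes were 2-fold higher and 0.0516% 2-fold lower. In stromal cells none of 5 passed, with 0.0222% higher and 0.037% lower among all genes. In myoid cells none of 5 passed, with 0.0491% in each direction. With shares this low over all genes, counts of 0 say nothing particular about the members. The target gene list had median log2 differences of 0.05 in Sertoli, -0.01 in stromal and 0.10 in myoid cells, and none of its genes passed 2-fold in these classes. Over all genes these medians were -0.001, -0.007 and -0.011. Of the tested targets, 9 of 16 in Sertoli, 8 of 17 in stromal and 12 of 16 in myoid cells had a ratio above 1. The same share over all genes was not computed, so these counts have no background. In Sertoli cells *Spry1* had a ratio of 1.70 (1.37 to 2.13) and *Etv5* of 1.46 (1.38 to 1.55), while *Ccnd1* had 0.565 (0.454 to 0.703). The other FGF family genes with at least 50 UMIs in GFRA1-type cells were *Fgf1*, *Fgf18* and *Fgf22*, and *Fgf12* and *Fgf13*, which encode intracellular FGF homologous factors and not secreted ligands. *Fgf18* was at 0.954 CPM in the control and 5.21 CPM in *Brca1* vKO (ratio 5.46, 3.02 to 10.2), while Sertoli cells had it at 18.6 and 18.8 CPM. None of 7 FGF family, 5 FGF receptor, 16 FGF signalling, 19 heparan sulphate, 5 CXCL12 and 1 CSF1 pathway genes tested in GFRA1-type cells passed 2-fold with the pseudocount. Of all genes in this class, 0.967% were 2-fold higher and 0.674% 2-fold lower, so these counts of 0 say nothing particular about the lists. Some of the listed genes, *Fgf18* among them, had ratios past 2-fold without the pseudocount. In heparan sulphate genes, the sulphatase gene *Sulf1* had a ratio of 0.398 (0.271 to 0.569) and *Sulf2* of 2.59 (1.94 to 3.47).

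Genes with the most similar pattern were found by the correlation of log2 levels over the 9 classes of the control library, for members with at least 200 UMIs there. These are descriptions over 9 classes of 1 library, and 3 genes are named for each. *Cxcr4* was closest to the leukocyte genes *Lcp1*, *Srgn* and *Inpp5d* (Pearson's r 0.988, 0.985 and 0.985, and 0.976, 0.962 and 0.967 in *Brca1* vKO). *Fgf2* was closest to *Tead3*, *Gpr153* and *Ntrk2* (0.991, 0.989 and 0.987, and 0.930, 0.960 and 0.932). *Cxcl12* was closest to *Col27a1*, *Susd2* and *Thbd* (0.978, 0.975 and 0.975, and 0.969, 0.676 and 0.846). *Fgfr1* was closest to *Slc1a5*, *Igf2* and *Nsg1* (0.964, 0.947 and 0.944, and 0.894, 0.782 and 0.815). *Csf1* was closest to *Dglucy*, *Lgals9* and *Ndel1* (0.966, 0.964 and 0.964, and 0.871, 0.788 and 0.867). For the broad *Fgfr2* the likeness did not carry over, as *Kif3c*, *Zfp369* and *Ddx50* had 0.948, 0.945 and 0.938 in the control and 0.179, -0.016 and 0.502 in *Brca1* vKO.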

How the data were processed

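The 2 libraries were made from testes of 1 control and 1 *Brca1* vKO mouse on the 10x platform, and more *Brca1* vKO cells were loaded. The deposited values are raw counts of UMIs per gene and barcode, which the authors made with Cell Ranger 6.0.2 on mm10 (GRCm38). Coordinates were taken from GENCODE M21 on GRCm38, another release than the authors' annotation, and upstream sequences from RefSeq.

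Barcodes under 750 genes or over 10% mitochondrial UMIs were dropped. Log-normalized counts of 2000 variable genes, chosen after 105 member and pathway genes were set aside, were reduced to 20 components in Seurat 5.3.0 under R 4.3.3, corrected for the library by Harmony's algorithm and clustered at a resolution of 0.25 (germ cells 0.2). Clusters were named from marker lists. Clusters with over 50% of Scrublet doublets (scanpy 1.11.5) stayed unnamed, and germ and immune sub-clusters were scored with sub-type lists alone, both decided after the data were seen. Doublets were removed in an alternative only.

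UMIs were summed per library and class and divided by the class total. Intervals (95%, scipy 1.17.1) were exact Poisson for levels, exact Clopper-Pearson for shares of cells and exact conditional for ratios. Calls of 2-fold used log2(CPM + 10) and at least 50 UMIs in both libraries together. A leading class was 2-fold above the next in both libraries, for genes with at least 50 UMIs in each. Shares of cells were compared after thinning, planned at 2000 UMIs and added at 10000 once the data were seen. Cells with fewer UMIs than the depth were left out of these shares. The sets of cells with an *Lhx1* UMI or without *Kit* and *Stra8* UMIs were also added then. The genes named were the members, 11 partner genes, pathway genes past 2-fold and the 3 genes most correlated with each member. Others (*Gfra1* and the other markers, *Fgf18*, *Sulf1*, *Sulf2*) were picked after their values were seen. The members and gene lists were chosen with earlier results of these data known. The fold and interval steps were tested on simulated data.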

Additional observations from a re-analysis of the deposited data

Results flagged for a closer look

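A small unnamed cluster outside every comparison (19 control and 8 *Brca1* vKO cells, led by *Ecrg4*, *Rmst*, *Kirrel3* and *Pax8*) carried *Fgf9* at 76.6 CPM in the control library (55.0 to 104, 41 UMIs) and 52.5 CPM in the *Brca1* vKO library (30.04 to 85.3, 16 UMIs). The same cells had *Fgfr2* at 733 CPM (662 to 809) and 749 CPM (655 to 853). In the control 1 cell held 133 of the 392 *Fgfr2* UMIs and 1 held 9 of the 41 *Fgf9* UMIs, and in *Brca1* vKO 1 cell held 92 of 228 and 1 held 8 of 16, so the intervals, which cover counting error only, leave out the spread between cells. Both were flagged because the signal lay in cells the comparisons do not use, and both were higher than in any of the 9 named classes of the same library. Sertoli markers summed to 1850 and 4283 CPM there, and no doublet was marked. GFRA1-type markers summed to 542 and 319 CPM and endothelial markers to 449 and 279 CPM in the same cells. The cluster has too few cells for a direction between genotypes.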

How the results depend on the processing

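No paired analysis was possible because each genotype has 1 library. Ratios between libraries were recomputed under 14 settings for member and target genes, and 306 of the values stayed within the main counting interval, 28 moved outside it and 2, of ratios at or past 2-fold, turned direction. These were both of *Csf1* in macrophages, with 1.13 as a mean of per-cell CPM and 2.91 without the richest cell. Of the smaller ratios, those of *Cxcr4* (0.948) and *Fgfr1* (1.054) in GFRA1-type cells crossed 1 under a mitochondrial limit of 5%, that of *Etv5* (0.941) with an *Lhx1* UMI required and that of *Fgf2* in myoid cells (1.001) with classes from marker scores. Members with a leading class went from 1 to 2 with classes from marker scores, with germ cells set by *Ddx4* and *Dazl* UMIs, without cells with a *Kit* or *Stra8* UMI, with an *Lhx1* UMI required and without the richest cell, and to 5 at 1.5-fold over the next class. As a mean of per-cell CPM the count was 1, but *Csf1* took the place of *Cxcr4*. Members past 2-fold in GFRA1-type cells went from 0 to 1 (*Fgf9*) under a mitochondrial limit of 5%, which left 106 and 39 cells, and to 2 (*Fgf8* and *Fgf9*) with a pseudocount of 1 CPM. Target genes past 2-fold there went from 3 to 8 with a pseudocount of 1 CPM and to 0 with 50 CPM or with an *Lhx1* UMI required. The ratio of *Fgf9* in GFRA1-type cells ran from 2.35 to 4.51 over the settings and that of *Fgf8* from 0.133 to 0.341. *Cxcr4* in this class reached 2.05 as a mean of per-cell CPM, and *Fgfr1* was lowest at 0.629 without cells with a *Kit* or *Stra8* UMI. The settings on *Lhx1*, *Kit* and *Stra8* UMIs, the richest cell and cells with neutrophil markers were chosen after seeing the data. TMM scaling shifted macrophages by -0.12 and KIT-type cells by -0.45 (log2). In the smallest of the named classes, 3 UMIs equalled up to 6.43 CPM, so lower levels could not be seen there.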

Other observations

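Values of the ligands in the unnamed germ cells belong to no comparison above. In the sub-cluster with low UMI counts, led by haemoglobin genes (341 and 52 cells), *Fgf8* was at 7.78 CPM in the control (13 UMIs) and 12.4 CPM in the *Brca1* vKO library (4 UMIs), and *Fgf9* at 2.99 and 6.19 CPM. In the sub-cluster with stromal genes (99 and 18 cells), *Fgf9* was at 2.40 CPM (6 UMIs) and 12.1 CPM (9 UMIs), and *Cxcl12* at 75.9 and 90.02 CPM. Of the 18 *Brca1* vKO cells of that sub-cluster, 88.9% were marked as doublets. The neutrophil-like cells numbered 5 in the control and 46 in *Brca1* vKO.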
